A study of Homo sapiens with 2 samples.

Results

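The ERBB2 amplicon is a stretch of chromosome 17 that is present in extra copies in many tumors and holds a run of neighbouring genes around the receptor gene ERBB2. IGF2BP3 LACE-seq peaks were taken from 8 of these genes, in order along the chromosome MED1, CDK12, PPP1R1B, STARD3, PGAP3, ERBB2, MIEN1 and GRB7. A peak was included when it overlapped the GENCODE 44 span of any of them by at least 1 bp, with no use of its measured values. In replicate 1, 30 of its 21142 peaks were included, and in replicate 2, 26 of its 20799, over 343 kb at chr17:39404285-39747291 (hg38).

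The peaks come from OE-19, an established adenocarcinoma line of the esophagogastric junction, grown without treatment and UV-crosslinked at 400 mJ. By the study's methods this dose was given 2 times. In LACE-seq, RNA bound to IGF2BP3 is immunoprecipitated, cut with MNase and reverse transcribed, and the cDNA ends are amplified linearly and sequenced. The samples are 2 replicates of 1 group, and no input, IgG or knockdown library was analysed here, so no test between conditions was possible. OE-19 is known as a line with amplified ERBB2. Without a control library, more gene copies, more RNA and more binding per RNA molecule cannot be told apart in any value below.

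ERBB2 encodes HER2, a receptor tyrosine kinase that has no known ligand and signals as a partner of other ERBB receptors through the RAS-MAPK and PI3K-AKT pathways. Its amplification defines a treatable class of breast and gastroesophageal cancers. GRB7 is an adaptor protein that binds activated receptors including ERBB2, and MIEN1 is a small membrane-anchored protein linked to cell migration. PGAP3 remodels the lipid of GPI-anchored proteins, and STARD3 moves cholesterol at late endosomes. PPP1R1B (DARPP-32) is an inhibitor of protein phosphatase 1. CDK12, with cyclin K, phosphorylates RNA polymerase II during elongation, and MED1 is a subunit of the Mediator complex that links transcription factors to the polymerase. IGF2BP3 is an RNA-binding protein that can act as a reader of N6-methyladenosine, a base modification often found at GGAC.

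To show the RNA under the peaks, the GGAC nearest to the summit was read from hg38 on the strand of the gene, with 30 bases printed 5′ to 3′ and GGAC in capitals. All such windows of ERBB2 peaks that were called in both replicates are given, and for every other gene the window of the shared peak with the highest −log10 q that holds a GGAC within 50 nt of the summit.
ERBB2 exon 1, 5′ UTR (chr17:39700062-39700091, plus): ttcccctccattgGGACcggagaaaccagg
ERBB2 upstream of exon 2 (chr17:39706839-39706868, plus): tgcagtgtgcaagGGACatgggcggagggg
ERBB2 exon 12, CDS (chr17:39715803-39715832, plus): ggaactgggcagtGGACtggccctcatcca
ERBB2 exon 20, CDS (chr17:39724865-39724894, plus): gcctgggctcccaGGACctgctgaactggt
ERBB2 intron upstream of exon 21 (chr17:39724966-39724995, plus): ggggctaggatggGGACtcttgctgggcat
ERBB2 exon 27, stop codon (chr17:39728016-39728045, plus): agtacctgggtctGGACgtgccagtgtgaa
GRB7 exon 15, stop codon (chr17:39746894-39746923, plus): ctgaccaggccgtGGACtggctcatgcctc
MIEN1 exon 4, stop codon (chr17:39729498-39729527, minus): ctgtgactgcacaGGACtctgggttcctgc
PGAP3 exon 8, 3′ UTR (chr17:39672679-39672708, minus): acttcttgaacttGGACatgaaggatgtgg
MED1 upstream of exon 1 (chr17:39451275-39451304, minus): cctctctctggcaGGACcacggtttatctc
STARD3 upstream of exon 2 (chr17:39653442-39653471, plus): gaggagtttgacaGGACtctgcctctgcct
The windows of ERBB2 exon 27, GRB7 exon 15 and MIEN1 exon 4 contain the stop codon of the canonical transcript. In ERBB2 exon 1 the motif began 1 nt before the summit of replicate 2, whose peak had the highest −log10 q of the 8 genes. No window of a CDK12 peak shared by both replicates held a GGAC. Sharing refers to the peaks and not to the motif, as each printed window is from 1 replicate. The other replicate's summit had no GGAC within 50 nt at ERBB2 exons 1, 2, 12 and 27, nor at GRB7, MIEN1 and PGAP3. The windows at exons 20 and 21 come from 1 overlapping pair, 1 from each replicate, with a different GGAC in each. Only MED1 and STARD3 had the printed GGAC near both summits.

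The motif lay within 50 nt of the summit at 11 of 30 peaks of these genes in replicate 1 (36.7%, Wilson 95% interval 21.9 to 54.5) and at 10 of 26 in replicate 2 (38.5%, interval 22.4 to 57.5). Over all windows of peaks on protein-coding genes the shares were 29% and 32.1%, which lie inside these intervals. The longer UGGAC, written TGGAC in the genome, was present at 3 peaks in each replicate (10.0% and 11.5%, against 9.97% and 10.1% of all windows), and GGACT at 4 and 6 (13.3% and 23.1%, against 8.25% and 9.30%). For GGACT the interval of replicate 1 (5.31 to 29.7) includes the share of its list, and that of replicate 2 (11.0 to 42.1) begins above it. Neighbouring peaks of a gene are not independent. ACACA, a motif that does not contain GGAC, was present at 1 and 2 peaks (3.33% and 7.69%, against 10.7% and 8.44%). Only the gene strand was searched, because a peak marks RNA. These matches describe the letters near the summits and do not mark methylated or bound bases.

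The strength of a peak was described by 3 measures. The fold enrichment is the read pileup at the summit over a local background, as the authors' peak caller gave it, and −log10 q is its confidence. The deposited values also allowed the number of reads at the summit and the number of reads in the 10 kb around it to be recovered as whole numbers. To compare replicates of different depth, the 10-kb count is also given as a multiple of the genome-wide rate of its own library, which was 11.7 reads per 10 kb in replicate 1 and 10.2 in replicate 2. Intervals of read counts are exact 95% Poisson intervals and cover counting error only. The 10 kb include introns, so the multiple compares regions of the genome and not transcripts.

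By the 10-kb counts, and with these values seen, the genes were divided into 2 blocks along the chromosome. Their medians differed by more than an order of magnitude, which follows in part from the division. Later contrasts between the blocks describe this division and are no support for it. MED1 was placed with CDK12 and STARD3, although its highest multiples (39.1 and 22.2) exceeded theirs (3.60 and 4.80 for CDK12, 2.92 and 5.20 for STARD3). PGAP3, ERBB2, MIEN1 and GRB7 had peaks with 394 to 2097 reads in the 10 kb around the summit in replicate 1 (median 1099.5) and 351 to 2184 in replicate 2 (median 1131). MED1, CDK12 and STARD3 had peaks with 13 to 456 reads in replicate 1 (median 39.5) and 13 to 226 in replicate 2 (median 34). As multiples of the genome-wide rate, the medians were 94.3 and 110.9 for the first block and 3.39 and 3.33 for the second. In replicate 2 the blocks did not overlap. In replicate 1 they overlapped at the 3′ end of MED1 alone, where 2 peaks had 456 and 437 reads, above the lowest peak of the other block. The median over the whole list was 70 reads in replicate 1 and 61 in replicate 2. Of the peaks of the 8 genes, 13 of 30 and 13 of 26 stood above the 99th percentile of their list (911 and 897 reads), and all of them belonged to PGAP3, ERBB2, MIEN1 or GRB7.

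**Figure D1:**
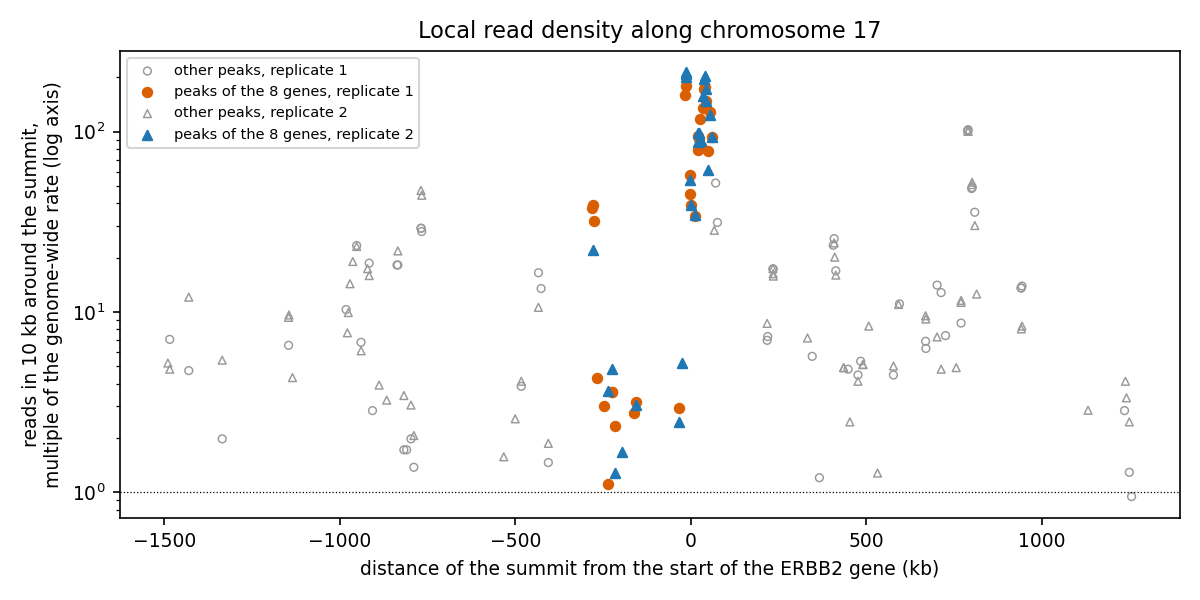
Reads in the 10 kb around each peak summit, as a multiple of the genome-wide rate of the library (log axis), against the distance of the summit from the start of the ERBB2 gene in kb. Each point is 1 peak, filled for the 8 genes and open for other genes, with circles for replicate 1 and triangles for replicate 2, and the dotted line marks the genome-wide rate. The peaks of PGAP3, ERBB2, MIEN1 and GRB7 form a column between 33.8 and 214.1 times that rate at the centre, while those of CDK12 and STARD3 to its left lie between 1.27 and 5.20 times.

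The lower edge of the dense block was sharp. The last peak of STARD3, called in replicate 2 only at chr17:39662756-39663124 over the end of its coding sequence, had 53 reads in 10 kb (interval 39.7 to 69.3), 5.20 times the genome-wide rate. The next peaks, at the 3′ end of PGAP3 from 39671256 in replicate 1 and from 39671265 in replicate 2, had 1861 and 2040 reads (intervals 1777 to 1948 and 1952 to 2130), 159.7 and 200.01 times the rate. TCAP and PNMT, which lie between STARD3 and PGAP3, had 0 peaks in both replicates. At the upper edge the counts fell in steps. The last GRB7 peak had 1091 and 948 reads. Replicate 2 then had a peak in no gene at chr17:39754015-39754493 with 289 reads, and replicate 1 had 2 peaks in IKZF3 with 604 and 365 reads, none of them called in the other replicate. IKZF3, which encodes a lymphoid transcription factor, begins 10.4 kb beyond GRB7 and was chosen here after its values were seen. Beyond it, GSDMB had up to 85 and 88 reads.

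ERBB2 (chr17:39687914-39730426, plus strand) had 11 peaks in each replicate, and 10 of the 11 overlapped a peak of the other replicate in both cases. Of these, 9 in replicate 1 and 8 in replicate 2 touched no other gene. The remaining ones also touched PGAP3 at one end or MIEN1 at the other, genes on the opposite strand, and the peaks carry no strand, so their RNA of origin is uncertain. Peaks reached 17 of the 27 exons of the canonical transcript in replicate 1 and 16 in replicate 2, with 15 exons reached in both.

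The ERBB2 peak with the largest fold enrichment lay over the first exon of the canonical transcript and its start codon, where the GGAC of the 5′ UTR is printed above. In replicate 1 it spanned chr17:39699744-39700293 with 86 reads at the summit, and its fold enrichment was 6.94. In replicate 2 it spanned chr17:39699841-39700465 with 131 reads, and its fold enrichment was 11.7 (mean 9.30 ± 3.34, SD, n = 2). Its −log10 q reached 40.6 and 89.2. The second of these was the highest value among all peaks of the 8 genes, and the percentiles within the lists were 95.3 and 99.6. It also had the fewest reads in the surrounding 10 kb of all ERBB2 peaks, 394 and 351, or 33.8 and 34.4 times the genome-wide rate.

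Within the coding sequence, the widest ERBB2 peak covered exons 10 to 14 in replicate 1 (chr17:39715090-39716576) and exons 10 to 13 in replicate 2 (chr17:39715069-39716420). These exons code for part of the extracellular region of the receptor. The fold enrichment was 5.46 and 6.53 (mean 5.99 ± 0.755, SD, n = 2), with −log10 q of 60.1 and 79.6. No other peak of the 8 genes had a higher −log10 q in replicate 1. Exons 17 and 18, which include the transmembrane segment, lay under a peak at chr17:39723138-39723892 in replicate 1 and at chr17:39723115-39723609 in replicate 2. Its summits were 7 bp apart, with 201 and 220 reads, fold enrichments of 4.28 and 4.58 and −log10 q of 58.4 and 69.0. This peak had the highest summit pileup of the 8 genes in replicate 2.

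Of the other ERBB2 peaks that touched no other gene, those reaching exon 2, exon 3 and exons 5 to 7 had 3.44, 3.44 and 3.45 in replicate 1 and 4.28, 4.15 and 3.71 in replicate 2. A peak at exon 9 was called in replicate 1 only, with 2.78. The end of the transcript, with the stop codon and part of the 3′ UTR, lay under a peak at chr17:39727601-39728405 in replicate 1 and at chr17:39727468-39728379 in replicate 2, with 3.01 and 3.15 (mean 3.08 ± 0.0967, SD, n = 2). Exons 20 and 21, in the kinase domain, had the smallest fold enrichment of all peaks of the 8 genes, 2.16 and 1.79, although 129 and 106 reads were piled up at the summits and 2018 and 1997 reads lay in the 10 kb. Within their lists these peaks stood at percentiles of 0.0804 and 0.0192 for fold enrichment, and of 99.2 and 98.2 for pileup.

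**Figure D2:**
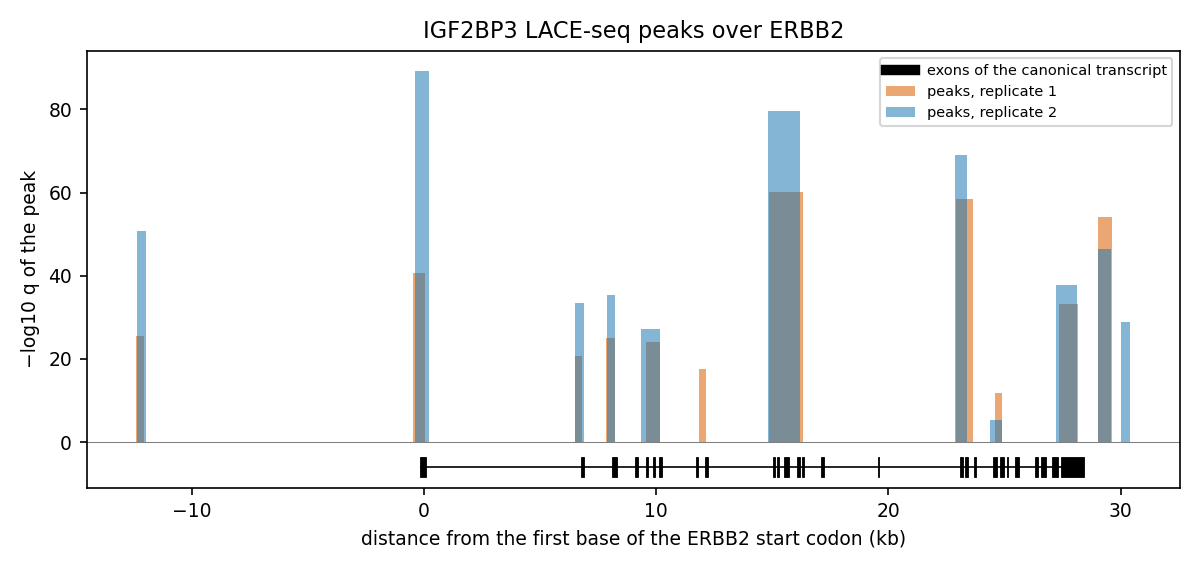
Peaks of both replicates over ERBB2, drawn to scale as bars from the first to the last base of the peak, with the −log10 q of the peak as height and the distance from the first base of the start codon in kb on the horizontal axis. Black boxes below 0 are the exons of the canonical transcript, which runs from left to right, and grey marks where the replicates overlap. The tallest bars, all of replicate 2, are at the start codon (89.2), exons 10 to 13 (79.6) and exons 17 and 18 (69.0). The tallest bar of replicate 1 is at exons 10 to 14 (60.1). The bars right of the last exon also touch MIEN1 on the opposite strand.

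PGAP3 (chr17:39671122-39696797, minus strand) had 5 peaks in each replicate. Its last exon, with the stop codon and the 3′ UTR, lay under the widest peak of the 8 genes, 2146 bp in replicate 1 and 1767 bp in replicate 2, with fold enrichments of 3.31 and 3.12 and 183 and 189 reads at the summits. The median width of all peaks was 336 and 342 bp. The PGAP3 peak with the largest fold enrichment covered its start codon, at chr17:39687846-39688193 in replicate 1 (5.07) and at chr17:39687878-39688252 in replicate 2 (7.81). It also lies over the 5′ UTR of an upstream first exon of ERBB2 on the opposite strand. The 10-kb counts were highest near the 3′ end, 2097 reads in replicate 1 and 2184 in replicate 2, and fell to 457 and 397 at the start codon.

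MIEN1 (chr17:39728496-39730532, minus strand) had 1 peak in replicate 1 and 2 in replicate 2. The peak called in both lay over exons 3 and 4 and the stop codon, with fold enrichments of 3.97 and 3.68 and −log10 q of 54.0 and 46.4. Its 203 reads at the summit were the highest pileup of the 8 genes in replicate 1. A second peak over the start codon, at chr17:39730253-39730644, was called in replicate 2 only (3.22). All MIEN1 peaks overlap the end of the ERBB2 span, and their 10 kb share reads with the last exons of ERBB2, so the density at MIEN1 is not a separate measurement.

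GRB7 (chr17:39737927-39747291, plus strand) had 3 peaks in each replicate, and each of them overlapped a peak of the other. They lay at exon 1, at exons 3 to 5 and at the last exon with the stop codon. The last was the strongest, at chr17:39746567-39747099 in replicate 1 and at chr17:39746569-39747114 in replicate 2, with fold enrichments of 3.85 and 5.33 (mean 4.59 ± 1.05, SD, n = 2) and −log10 q of 32.2 and 56.3. The exon 1 peak had 2.87 and 2.83, and its summits lay just before the annotated gene start. The peak at exons 3 to 5 had 2.54 and 2.85, with the highest local counts of GRB7, 1499 and 1255 reads.

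MED1 (chr17:39404285-39451272, minus strand) had 6 peaks in replicate 1 but only 2 in replicate 2, the largest difference among the 8 genes. Both peaks of replicate 2 were also called in replicate 1. One lay in the long last exon, within the coding sequence, at chr17:39408970-39409494 in replicate 1 and at chr17:39408984-39409449 in replicate 2. It had fold enrichments of 3.62 and 4.45, summits 2 bp apart, and 456 and 226 reads in 10 kb. The other lay at the start of the gene, at chr17:39451131-39451513 and at chr17:39451101-39451511, with 7.97 and 11.5, the largest fold enrichment outside ERBB2 in replicate 2. It rested on 10 and 23 reads at the summit. The peaks of replicate 1 alone lay in the 3′ UTR, at another coding part of the last exon, at exon 14 and at exons 4 and 5. The exon 14 peak had 9.33, the largest fold enrichment of the 8 genes in that replicate.

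CDK12 (chr17:39461486-39567559, plus strand) had 5 peaks in replicate 1 and 4 in replicate 2, of which 2 were called in both. The first lay in the coding part of exon 1 at chr17:39462635-39462966 in replicate 1 and at chr17:39462611-39462964 in replicate 2, with fold enrichments of 6.28 and 9.83 and summits 9 bp apart. The second lay in exon 2 at chr17:39470780-39471502 and at chr17:39471251-39471544, with 8.93 and 5.79. The order of the replicates was opposite at these sites, and the pileups were low, 13 and 23 reads at the first and 15 and 7 at the second. The peaks of 1 replicate only had 10 to 14 reads at the summit. CDK12 had at most 42 and 49 reads in the 10 kb around any of its summits.

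STARD3 (chr17:39637090-39664201, plus strand) had 1 peak in replicate 1 and 2 in replicate 2. The peak called in both covered the start codon in exon 2, at chr17:39653361-39653671 and at chr17:39653361-39653660. Its fold enrichments of 8.02 and 8.07 were nearly equal (mean 8.04 ± 0.0381, SD, n = 2), with 15 and 13 reads at the summits. PPP1R1B (chr17:39626740-39636626), next to STARD3, had 0 peaks in both replicates, as had NEUROD2 between CDK12 and PPP1R1B. No count of reads can be recovered where no peak was called, so a missing peak sets no level for these genes.

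Ordered by the highest 10-kb multiple, PGAP3 (179.9 and 214.1, mean 197 ± 24.2, SD, n = 2) and ERBB2 (177 and 204.3, mean 190.7 ± 19.3) did not differ beyond their spread, and their read counts had overlapping intervals in both replicates. MIEN1 followed with 147.4 and 171.6 and GRB7 with 128.6 and 123.0. MED1 had 39.1 and 22.2, and CDK12 (3.60 and 4.80) and STARD3 (2.92 and 5.20) were last and did not differ beyond their spread. Among 6956 protein-coding genes with a peak in both replicates, ranked by the lower of the 2 multiples, PGAP3 was 4th, ERBB2 5th, MIEN1 8th and GRB7 15th. MED1 was 1033rd, CDK12 5032nd and STARD3 5437th. The genes ahead of PGAP3 were MUC5B, C6orf132 and JUP, which were named after their values were seen.

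In the dense block, the median rank by fold enrichment was low and the median rank by −log10 q was high. Single peaks did not all follow this. In replicate 2 the ERBB2 start codon peak had the highest values of the block in both measures (11.7 and 89.2). The peak at ERBB2 exons 20 and 21 had the lowest (1.79 and 5.36). For PGAP3, ERBB2, MIEN1 and GRB7 the median fold enrichment was 3.45 in replicate 1 and 3.69 in replicate 2, at median percentiles of 2.86 and 3.22, while the median −log10 q was 24.5 and 34.4, at percentiles of 85.0 and 91.1. For MED1, CDK12 and STARD3 the median fold enrichment was 7.21 and 7.40 (percentiles 56.2 and 53.6) and the median −log10 q was 9.27 and 9.86 (percentiles 32.1 and 34.4). The median pileup was 113.5 and 138 reads in the dense block and 15 and 13 in the other. Over the full lists the medians were 6.89 and 7.13 for fold enrichment, 11.9 and 12.4 for −log10 q and 22 reads in both for pileup. The background in the fold enrichment is the reads of the surrounding 10 kb, and the part of this division in the low ranks was not tested. Of the peaks of the 8 genes, 14 and 10 lay below the 5th percentile of fold enrichment.

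**Figure D3:**
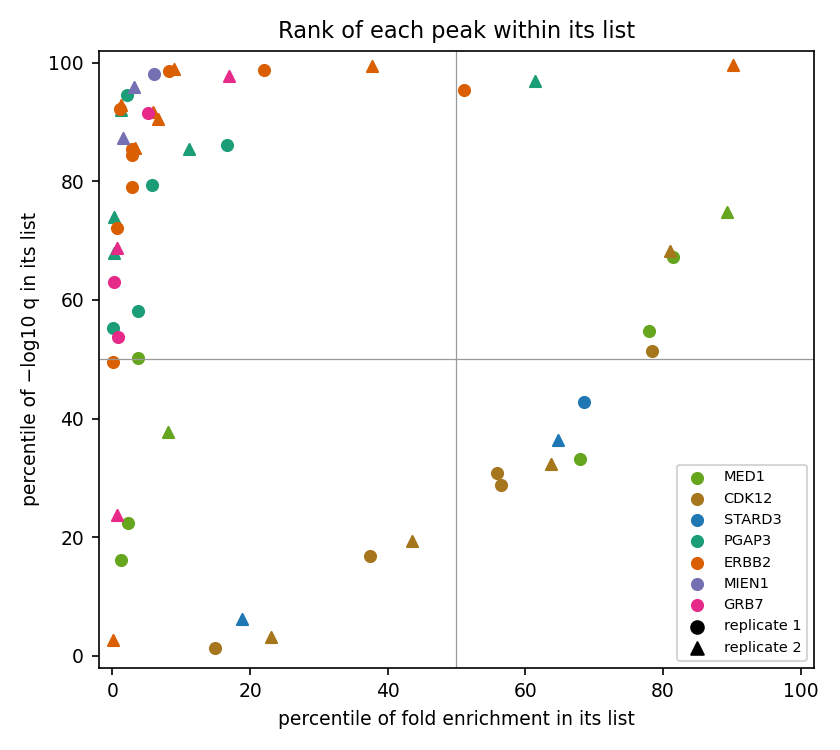
Percentile of fold enrichment (horizontal) and percentile of −log10 q (vertical) of each peak of the 8 genes within its own list, coloured by gene, with circles for replicate 1 and triangles for replicate 2 and grey lines at the median. PGAP3, ERBB2, MIEN1 and GRB7 crowd the upper left, with median percentiles of 2.86 and 3.22 for fold and 85.0 and 91.1 for −log10 q. CDK12, STARD3 and part of MED1 run along a rising diagonal from the lower left to the right. PPP1R1B had no peak.

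Peaks were found in both replicates, with at least 1 overlapping pair, for 7 of the 8 genes. Over all 20033 protein-coding genes, 34.7% had a peak in both replicates and 30.5% an overlapping pair. By peak, 21 of 30 in replicate 1 (70%, Wilson interval 52.1 to 83.3) and 22 of 26 in replicate 2 (84.6%, interval 66.5 to 93.9) overlapped a peak of the other list, against 60.7% and 61.1% of all peaks on protein-coding genes. The interval of replicate 1 includes the share of its list and that of replicate 2 does not. The peaks that recurred were unevenly divided between the blocks, with 16 of 18 and 17 of 18 for PGAP3, ERBB2, MIEN1 and GRB7 and 5 of 12 and 5 of 8 for MED1, CDK12 and STARD3. Neighbouring peaks of a gene share its RNA and are not independent. Summits of the 21 pairs lay a median of 61 bp apart, against 39 bp over 11483 pairs of all protein-coding genes. Fold enrichment was higher in replicate 2 in 16 of the 21 pairs (76.2%, against 59.0% of all pairs).

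At the summit, 15 of 30 peaks in replicate 1 (50%, interval 33.2 to 66.8) and 12 of 26 in replicate 2 (46.2%, interval 28.8 to 64.5) lay in coding sequence, against 33.1% and 33.6% of all peaks on protein-coding genes. The interval of replicate 2 includes the share of its list, and that of replicate 1 begins just above it. In 3′ UTRs there were 4 and 1 summits (13.3%, interval 5.31 to 29.7, and 3.85%, interval 0.682 to 18.9), against 24.5% and 19.6%. The interval of replicate 1 includes the share of its list, and that of replicate 2 ends just below it. The mean 3′ UTR share of 8.59% was 14.1% with 1 transcript per gene and 3.33% at the middle of the peak. The 5′ UTR held 1 and 2 summits (3.33% and 7.69%, against 7.38% and 13.2%) and introns 4 and 5 (13.3% and 19.2%, against 29.9% and 26.9%). The low intron shares depended on the use of all transcripts. With 1 transcript per gene, introns held 30% and 34.6% of summits, with no share over all peaks at that setting. Exons of non-coding transcripts held 4 summits in each list (13.3%, interval 5.31 to 29.7, and 15.4%, interval 6.15 to 33.5), against 3.70% and 3.76%, which lie below both intervals. All of these summits were in PGAP3, ERBB2 or CDK12 and in introns of the canonical transcript, some at the same site in both lists. Neighbouring peaks of a gene are not independent, so the intervals of this paragraph are a description and no test. A further 2 summits in each list lay outside the gene span at the start of MED1 or GRB7. Every one of the 30 and 26 peaks reached an annotated exon, including those with an intronic summit. The summit sequence of 31 bases occurred once in the genome for all of them. Neither count is set against a share over all peaks, so neither is read as particular to these genes. Stop codons of the canonical transcript lay under a peak in both replicates for PGAP3, ERBB2, MIEN1 and GRB7, which is 4 of the 7 genes with peaks, against 25.8% of 6956 genes with a peak in both. Start codons did so for STARD3, PGAP3 and ERBB2, 3 of 7, against 19.0%. With so few genes these counts are a description.

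Exonic bases under a peak also differed between the blocks, which had been divided by local reads. For PGAP3, 74.8% and 70.2% of the exonic bases of all its transcripts lay under a peak (mean 72.5% ± 3.28, SD, n = 2). ERBB2 followed with 37.5% and 37.1% (37.3% ± 0.240), MIEN1 with 29.7% and 40.6% (35.2% ± 7.71) and GRB7 with 24.7% and 25.3% (25% ± 0.432). MED1 had 21.1% and 7.41%, CDK12 14.1% and 8.63%, and STARD3 3.26% and 9.38%. The median over genes with a peak was 9.78% and 9.62%. ERBB2 and MIEN1 did not differ beyond the spread of the replicates, and neither did MED1, CDK12 and STARD3 among themselves. When only the canonical transcript was counted, ERBB2 had 53.9% and 55.3%. Among 1132 protein-coding genes whose exonic length was within 10% of that of ERBB2, 99.5% had a smaller mean share, and the median was 1.92%. These genes were not required to have a peak. Among protein-coding genes of any length with a peak, ERBB2 stood at percentiles of 92.4 in replicate 1 and 92.7 in replicate 2. The genes with the share most like that of ERBB2 were PABPC1 (40.8% and 34.3%), USP54 (36.9% and 40.6%) and F5 (45.3% and 23.2%), by the absolute difference of the means over 2 replicates.

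**Figure D4:**
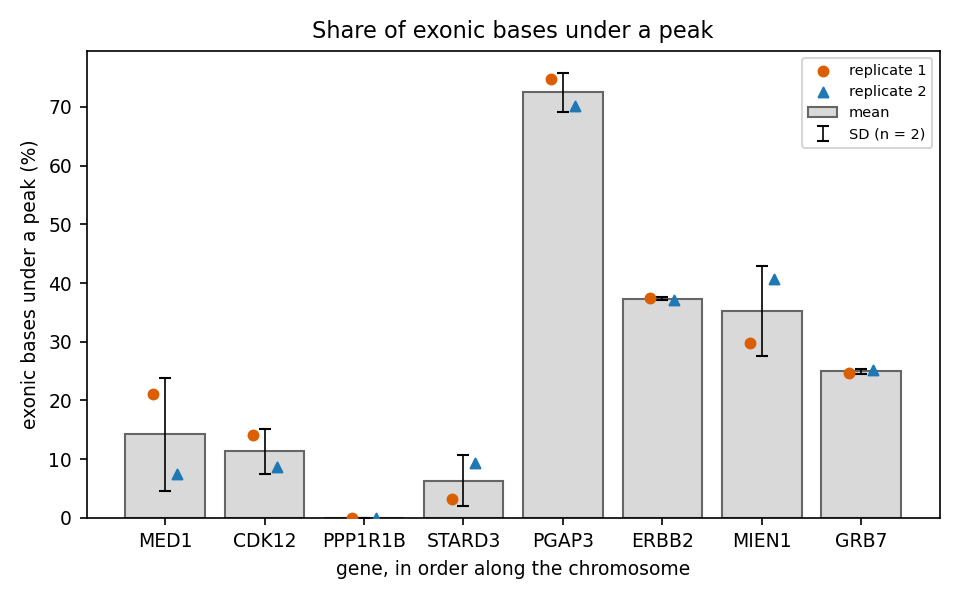
Share of exonic bases of all annotated transcripts that lay under a peak, in percent, for the 8 genes in order along the chromosome. Bars are means and error bars the SD of the 2 replicates, which are drawn as circles and triangles. PGAP3 stands highest at 72.5%, ERBB2 has 37.3% with nearly equal replicates, and PPP1R1B is at 0.

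The genes that flank the 8 were examined for the same measures. Of 24 protein-coding genes within 500 kb on either side, 12 had a peak in replicate 1, 12 in replicate 2 and 10 in both, with 8 having an overlapping pair (41.7% and 33.3%, near the 34.7% and 30.5% of all protein-coding genes). Below MED1, the nearest with peaks in both were FBXL20 with up to 192 and 108 reads in 10 kb (16.5 and 10.6 times the genome-wide rate), RPL19 with 45 and 42 (3.86 and 4.12 times) and LASP1 with 339 and 481 (29.1 and 47.2 times). Above GRB7 they were GSDMB (7.29 and 8.63 times), ORMDL3 with 202 and 177 reads (17.3 and 17.4 times) and MED24 with 66 and 73 (5.66 and 7.16 times). No gene among the 24 had a highest multiple as large as the highest of PGAP3, ERBB2, MIEN1 or GRB7. In replicate 1, the lowest peaks of PGAP3 and ERBB2, at 39.2 and 33.8 times, lay below the highest of IKZF3 (51.8) and above that of LASP1 (29.1). In replicate 2, their lowest peaks, at 38.9 and 34.4 times, lay below the highest of LASP1 (47.2), and IKZF3 had no peak. Farther out, the densest peaks within 1.5 Mb were those of TNS4, a tensin-family gene 787.9 kb above the start of ERBB2 that was chosen after its values were seen, with up to 1195 and 1028 reads (102.5 and 100.8 times).

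The other genes of the ERBB pathway are spread over the genome. Of 28 listed receptors, ligands, adaptors and kinases, 23 had a peak in replicate 1, 25 in replicate 2, and 22 had an overlapping pair (78.6%, against 30.5% of all protein-coding genes). The sister receptors EGFR, ERBB3 and ERBB4 all had such pairs, with highest 10-kb multiples of 27.8 and 30.9 for EGFR, 31.1 and 31.7 for ERBB3 and 3.77 and 5.29 for ERBB4. Genes among those with the largest fold enrichment by the lower within-list percentile were the kinase MAP2K2 (11.8 and 15), the adaptor GRB2 (10.7 and 14.6) and the RAF kinase BRAF (12.4 and 11.3). Each of these had a larger fold enrichment than any peak of GRB7, MIEN1 or PGAP3, and fewer local reads than all 4 genes of the dense block at their highest. The median of the highest 10-kb multiple over the listed genes with a peak was 17 and 13.1, against 7.98 and 7.26 over all protein-coding genes with a peak.

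Partners of CDK12 and MED1 were taken from a list of 29 cyclin and Mediator genes. Of these, 18 had a peak in each replicate, 14 in both and 10 an overlapping pair (34.5%, against 30.5% of all protein-coding genes). Cyclin K (CCNK) had 1 peak in replicate 1 with a fold enrichment of 3.62 and 3 in replicate 2 with up to 7.39. The Mediator subunits with the largest fold enrichment in both were MED13 (12.3 and 12.6) and MED14 (11.7 and 13.5). The median of the highest 10-kb multiple over the list was 7.34 and 6.86, close to that over all genes.

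The labelled cell type was checked against marker genes. Over all protein-coding genes, 34.7% had a peak in both replicates and 30.5% an overlapping pair. All 6 epithelial markers (KRT8, KRT18, KRT19, EPCAM, CDH1 and CLDN4) had an overlapping pair of peaks. Of 4 lineage markers, GATA6 and HNF4A had peaks in both replicates, TFF3 in replicate 2 only and CDX1 in neither. Of 6 fibroblast, immune and endothelial markers, 0 had a peak in both, with single peaks of PTPRC in replicate 1 and COL1A1 in replicate 2. With lists this short, the counts of lineage and other markers are a description and do not establish the cell type. A peak in a gene gives no level of its RNA.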

How the data were processed

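IGF2BP3 LACE-seq peak lists of 2 OE-19 replicates were used, both in 1 group by their titles. The study calls the replicates biological. The submitters' processing notes list fastp, HISAT2, MACS2 and hg38, whereas the study's methods name Bowtie and Piranha. The deposited files have the MACS narrowPeak layout, with peaks called per replicate and no strand. The fold enrichment is a ratio as deposited, and p-value and q-value were deposited on the −log10 scale. The deposited score column repeats the q-value and was not used, and other deposited columns hold positions and the summit.

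Summit pileup and local background were recovered as the pair that gives both the deposited fold, (pileup + 1)/(background + 1), and the Poisson p-value within 0.001 in −log10 p. The best-matching whole pileup met this limit for 21142 of 21142 and 20799 of 20799 peaks. The smallest mismatch of a second-best pileup was 0.000524 in replicate 1 and 0.00144 in replicate 2. In replicate 1 the match was therefore not always the only one within the limit, and the closest was taken. The backgrounds above the genome-wide floor (20394 and 20240 peaks) equalled a whole number of reads in 10 kb scaled to a fragment of 293 or 294 bp, in 100% of cases. At 748 and 559 peaks the background is the genome-wide rate. Library totals are not given in the sources used here. The replicates differed 1.14-fold in that rate. On 1000 simulated peaks per replicate, 100% of pileups and counts were recovered.

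A peak was assigned to genes of GENCODE 44 by overlap, and its summit to CDS, 3′ UTR, 5′ UTR, non-coding exon or intron in that order over all transcripts. Sequences were read from hg38. Coordinates are 1-based. Intervals are at 95% and, with amplified reads, cover counting error only. No test was run, since 1 group without a control allows none over samples. The genes named were the 8 members, flanking genes with peaks in both lists (nearest 3 on each side), 4 ERBB pathway genes (1 of them not reported here) and 2 partners with the largest fold percentile, and CCNK. Genes, lists and rules were chosen with earlier results of these data known. Python 3.11.15, numpy 2.4.6, pandas 2.3.3 and scipy 1.17.1 were used.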

Additional observations from a re-analysis of the deposited data

How the results depend on the processing

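Of 117 values recomputed for 14 results under 15 settings, 22 came from a single replicate and 22 from settings that removed no peak, and these could not move. Of the other 73, 55 differed from the reported value by less than the replicate SD (for counts of peaks and genes, by less than 1.5 times) and 18 moved further. Each replicate alone gave 26 to 30 peaks, 70 to 84.6% shared, and a median fold percentile of 5.48 to 8.55. The number of peaks, a mean of 28, became 25 with peaks touching no other gene and 19.5 without ERBB2, and 7 genes with a peak in both replicates became 6 in each case.

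With summits within 50 bp in place of overlap, 25.1% of peaks (77.3% by overlap) and 4 genes (7) were shared. With the summit inside the gene span, CDS rose to 51.8% (48.1%) and GGAC was at 34.5% (37.6%). With peaks touching no other gene, exonic cover was 18.8% (21.6%) and GGAC 39.9%. At the middle of the peak, 12.4% of peaks were in 5′ UTRs (5.51%) and GGAC was at 33.7%. With 1 transcript per gene, CDS was 42.6%, introns 32.3% (16.3%) and exonic cover 27.9%. Without ERBB2, the median fold percentile was 10.0 (7.02), the median pileup 2.36 times (4.10) and the local background 6.54 times (10.9) that of all peaks on protein-coding genes, and exonic cover 17.7%. GGAC was at 24.9% within 25 nt and 66.8% within 100 nt. Within 250 kb, 4 flanking genes had peaks in both (10 within 500 kb).

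Without a control library, gene copies, RNA level and binding cannot be told apart. Peaks of CDK12, STARD3 and the start of MED1 rest on 7 to 23 reads at the summit, and the part of depth in peaks missing from 1 replicate was not tested.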
